A study of Homo sapiens with 151 samples.

Results

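The genes described here are 10 targets of the liver X receptors (LXRs) and of fatty acid synthesis: SREBF1, ABCA1, ABCG1, ABCG5, ABCG8, MYLIP, NR1H3, FASN, SCD and LPCAT3. They were chosen by name, with earlier results of these data known, from the 20046 protein-coding genes of GENCODE 44 on hg38, and all 10 were found there. Binding was read from ChIP-seq peak lists of HepG2, a cell line derived from a human liver cancer, each made with an anti-FLAG antibody against a DNA-associated protein (DAP) that carries a FLAG tag. The tag was introduced by CETCh-seq, which edits the protein's own gene, and the number of edited clones behind a list is not given in the sources used here. Of 151 samples, 24 are input libraries and the others give 1 peak list per DAP, so no replicate lists could be compared. The labels mark 6 of these lists as not preferred, and all counts use the preferred lists, of which 15 are of DAPs labelled non-TF. Cells of all lists are the same line with no stated treatment, so the comparison is between DAPs, between genes, and between the 10 genes and all protein-coding genes. A list is counted at a gene's TSS where a peak overlaps the 500 bp on either side of any annotated TSS, and in its locus where a peak overlaps the gene body or the 20 kb on either side.

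LXRs are nuclear receptors that are activated by oxidised cholesterol. They bind DNA with the retinoid X receptor (RXR) at direct repeats of the hexamer AGGTCA with 4 bases between the copies (DR4), and in liver they are known for sending surplus cholesterol out of the cell and for switching on fatty acid synthesis. There are 2 LXRs in human cells, NR1H2 (LXR-beta) and NR1H3 (LXR-alpha), and the list of NR1H2 is among those used here, as are the lists of NCOA1 and NCOA2, coactivators that bind nuclear receptors. The labels class NCOA1 and NCOA2 as TFs. NR1H3 itself enters only as a gene.

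The sequences under the strongest NR1H2 peaks of these genes carry much of what follows, so they are shown first. Each line gives 36 bases of the hg38 reference around the best match to the DR4 within 100 bp of a peak summit, written in the direction of the repeat, and capitals mark the 2 hexamers. The rank is that of the peak among the 5511 peaks of the NR1H2 list, from the highest deposited signal down.
SREBF1 site of rank 2 (chr17:17823917-17823952, plus strand): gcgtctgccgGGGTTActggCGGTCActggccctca
SREBF1 site of rank 4 (chr17:17836310-17836345, minus strand): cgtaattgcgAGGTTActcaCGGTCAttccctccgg
ABCA1 site of rank 8 (chr9:104926722-104926757, plus strand): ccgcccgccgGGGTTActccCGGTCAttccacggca
ABCA1 site of rank 22 (chr9:104928199-104928234, plus strand): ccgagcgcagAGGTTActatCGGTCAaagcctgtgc
ABCG1 site of rank 142 (chr21:42234877-42234912, plus strand): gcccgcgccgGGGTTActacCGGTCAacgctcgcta
MYLIP site of rank 31 (chr6:16131112-16131147, plus strand): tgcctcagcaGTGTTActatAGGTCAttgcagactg
NR1H3 site of rank 54 (chr11:47255037-47255072, minus strand): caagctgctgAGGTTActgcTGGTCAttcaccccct
FASN site of rank 19 (chr17:82098963-82098998, plus strand): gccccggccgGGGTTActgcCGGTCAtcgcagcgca
SCD site of rank 13 (chr10:100373376-100373411, plus strand): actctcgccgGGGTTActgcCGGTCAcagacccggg
LPCAT3 site of rank 16 (chr12:7018884-7018919, plus strand): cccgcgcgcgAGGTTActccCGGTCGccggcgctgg

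These 10 sites held the same letters over most of their length. Counted from 1 at the 5′ end of the repeat, all 10 sites differed from the consensus by C5T, 8 by A11C and 6 by A1G, so that the first hexamer ended in TTA and the spacer began with CT in each. The letters GTTACTNNNGGTC occurred in all 10 of them. Because these letters were read off the same sites, their presence there is a description and not a test. The sites of ranks 4 and 22 and that of NR1H3 came within 2 mismatches of the 12 consensus bases, and 7 sites had 3 mismatches, which the search for a DR4 with at most 2 mismatches does not count. Over the 10 sites the repeat lay 1 to 84 bp from the summit. The bases within 100 bp of the summits of the strongest peaks of SREBF1 and ABCA1 show where it lies in these 2, with the hexamers again in capitals.
SREBF1 summit window (chr17:17823831-17824031, plus strand): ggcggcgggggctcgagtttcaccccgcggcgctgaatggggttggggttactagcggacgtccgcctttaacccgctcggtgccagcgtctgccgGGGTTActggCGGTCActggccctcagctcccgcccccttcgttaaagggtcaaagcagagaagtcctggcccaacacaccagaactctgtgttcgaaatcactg
ABCA1 summit window (chr9:104926607-104926807, plus strand): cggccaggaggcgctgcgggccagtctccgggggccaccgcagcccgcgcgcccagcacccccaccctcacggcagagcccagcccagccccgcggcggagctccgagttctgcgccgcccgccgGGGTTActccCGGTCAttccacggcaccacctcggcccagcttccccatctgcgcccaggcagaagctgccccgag

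NR1H2 had a peak in the locus of all 10 genes and at a TSS of 9 of them. Over all protein-coding genes, 30.8% had an NR1H2 peak in the locus and 16.2% had one at a TSS. ABCG1 was the gene with no NR1H2 peak at a TSS. NCOA2 had peaks in the loci of 9 genes, against 64.8% of all genes, and at a TSS of 6, against 33.1%. NCOA1 had peaks in the loci of 7 genes, against 42.6% of all genes, and at a TSS of 4, against 22.7%. NR1H2, NCOA1 and NCOA2 all had a peak in the loci of 7 of the 10 genes (SREBF1, ABCA1, MYLIP, NR1H3, FASN, SCD and LPCAT3), against 22.1% of all genes. No coactivator peak lay in the locus of ABCG1, and NCOA1 had none in those of ABCG5 and ABCG8. ABCG5 and ABCG8 share a promoter and were bound by the same lists at their TSSs, and these numbers count them as 2 genes although they are not independent. The genes were chosen as LXR targets and genes of fatty acid synthesis, so their counts are set beside the background as a description, without a test.

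The NR1H2 list has 29 distinct peaks in the 10 loci, and 9 of them are among the 100 peaks of highest deposited signal in the list. The signal is the authors' own value for a peak, is not scaled between lists, and serves here only to order peaks within NR1H2. These 9 peaks lie in the loci of 7 of the 10 genes, whereas 0.753% of all protein-coding genes have a peak of the top 100 in their locus. The limit of 100 was chosen after the ranks were seen. Of the 10 strongest peaks of the whole list, 3 lie in these loci. The deposited signal was 45.5 at the median of the 29 peaks and 30.3 at the median of all NR1H2 peaks, which range between 8.54 and 352.

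**Figure D1:**
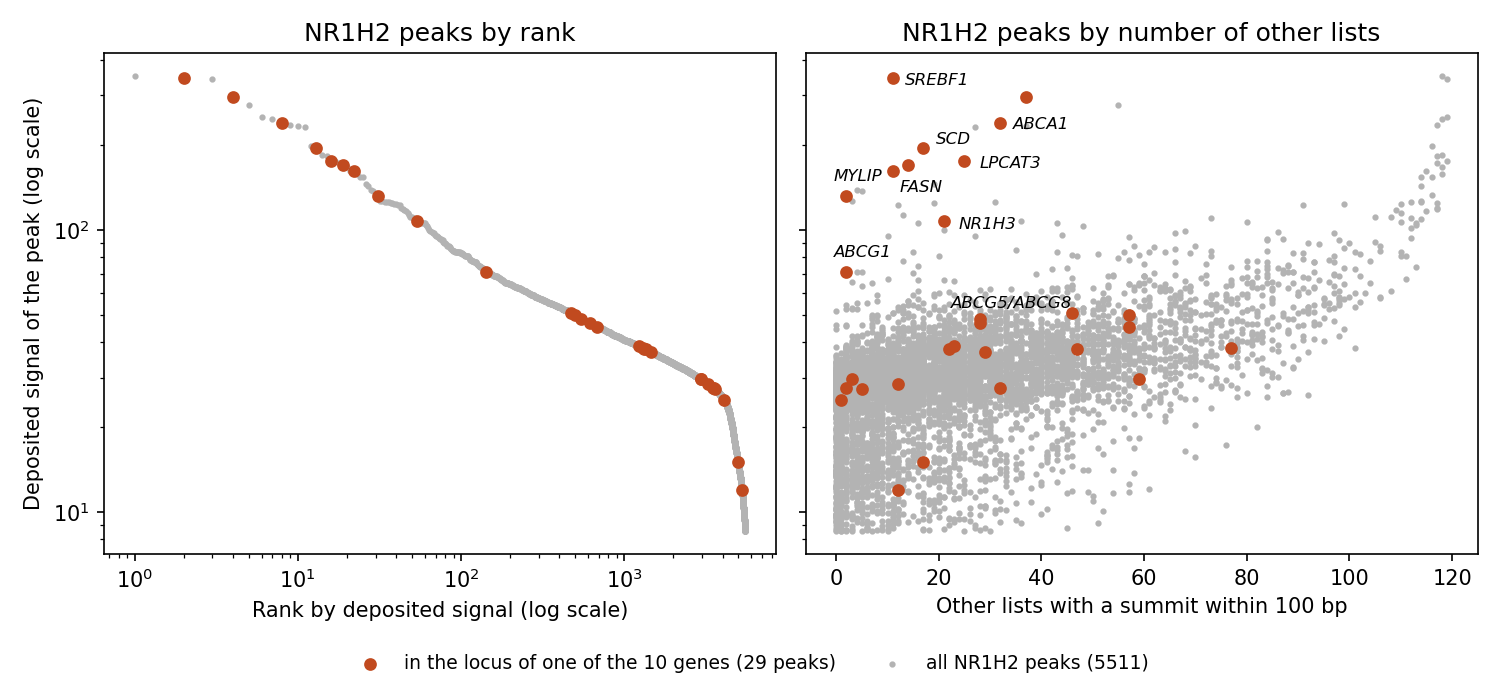
Deposited signal of each NR1H2 peak (vertical axes, log scale) against its rank in the list (left, log scale) and against the number of other lists with a summit within 100 bp (right). Each red point is 1 of the 29 peaks in the loci of the 10 genes and each grey point is 1 of all 5511 peaks; names mark the strongest peak of each gene, and 9 of the red points are among the 100 of highest signal, at places with 2 to 37 other lists.

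SREBF1 encodes the TF that drives the genes of fatty acid synthesis, and it held 4 NR1H2 peaks on chromosome 17. The strongest had a signal of 345 and rank 2, with its summit 313 bp upstream of an annotated internal TSS and 13055 bp inside the gene from the canonical TSS, in intron 1. A further peak of rank 4 and signal 295 had its summit in the same intron, 667 bp past the canonical TSS and just outside the 500 bp window. Both carried the shared letters and both had an NCOA2 summit within 100 bp but none of NCOA1. The places differed in how many other DAPs were there, with 11 other lists at the peak of rank 2 and 37 at the peak of rank 4. The 2 weaker peaks, of rank 472 in intron 1 and rank 3275 upstream of the gene, had neither the shared letters nor a DR4, and among the 4 it was the peak of rank 472 that had an NCOA1 summit within 100 bp.

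ABCA1, the exporter that hands cholesterol and phospholipid to apolipoprotein A-I, held 3 NR1H2 peaks on chromosome 9. The peak of rank 8 (signal 240) lay in intron 1, 1448 bp past the canonical TSS, and had 32 other lists within 100 bp, NCOA2 among them. The peak of rank 22 (signal 162) had its summit 21 bp upstream of the TSS, with 11 other lists and no summit of NCOA1 or NCOA2 within 100 bp. The nearest NCOA2 summit to it was 102 bp away, just past that limit. A further peak, of rank 1361, lay 41636 bp into the gene in intron 3 together with NCOA1 and NCOA2, and the NCOA2 peak there was of rank 380 of the 31878 in its list, the highest rank of any NCOA2 peak in the 10 loci.

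ABCG1 moves cholesterol to high-density lipoprotein, and its locus was the least bound of the 10. No preferred list had a peak at any of its 11 TSS positions, and 18 lists had a peak in the locus, of which most sat at the neighbouring gene TFF3. Within ABCG1, the NR1H2 peak of rank 142 (signal 71.3) lay in intron 2, 15814 bp past the canonical TSS, and carried the shared letters. Only 2 other lists, MEIS2 and MGA, had a summit within 100 bp of it. The other NR1H2 peaks of the locus, of ranks 4076 and 5253, overlapped the TSS window of TFF3 beyond the end of ABCG1 and lacked the letters.

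ABCG5 and ABCG8 form 1 transporter that moves sterols into bile and the gut lumen, and their genes start head to head on chromosome 2. They shared a single NR1H2 peak, of rank 614 and signal 46.9, with its summit 183 bp upstream of the canonical TSS of ABCG5 and in exon 1 of ABCG8. It had 28 other lists and neither coactivator, and its best match to the DR4 had 5 mismatches. ABCG5 and ABCG8 were the genes of the set whose strongest NR1H2 peak held no shared letters.

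MYLIP encodes an E3 ubiquitin ligase, also called IDOL, that targets the LDL receptor for degradation. Its strongest NR1H2 peak (rank 31, signal 132) lay in intron 2, 2051 bp past the canonical TSS, and had only 2 other lists, NCOA2 and SIX5. At the promoter of MYLIP 72 lists had a peak, and the NR1H2 peaks there were of ranks 2956 and 4965. The peak with the higher signal in this gene was thus the one in the sparsely bound intron.

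NR1H3, LXR-alpha itself, held an NR1H2 peak of rank 54 (signal 108) whose summit was 3000 bp upstream of the canonical TSS, inside longer transcripts of the gene, with NCOA2 and 20 further lists. A peak of rank 683 lay 9115 bp upstream of the canonical TSS, at a promoter that NR1H3 shares with ACP2, where 57 other lists had a summit. Of the 72 lists at the TSSs of NR1H3, 22 were at its canonical TSS, and the region at the shared promoter held 71.

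FASN makes palmitate and is the end point of the synthesis pathway. It had 7 NR1H2 peaks, the most of the 10 genes, and was the most bound of them, with 111 lists in the locus. Its strongest NR1H2 peak (rank 19, signal 170) had its summit 829 bp upstream of the canonical TSS, 14 other lists, no coactivator within 100 bp and the shared letters. The next in signal, of rank 502, lay at the TSS of DUS1L with 57 other lists, NCOA1 and NCOA2 among them. Peaks of ranks 1299 and 1329 lay 4805 and 6016 bp upstream of the canonical TSS, with 77 and 47 other lists, and that of rank 3486 lay 2461 bp upstream with 2, E4F1 and TRIM24. The peak at the FASN TSS itself, 10 bp upstream, was of rank 3534.

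SCD introduces the double bond that turns stearate into oleate. Its NR1H2 peak of rank 13 (signal 196) lay 26162 bp past the TSS, downstream of the gene and in the TSS window of the lncRNA OLMALINC, with 17 other lists. The NCOA2 summit was 1 bp away from that of NR1H2. Nearer to SCD, a peak of rank 1461 had its summit 626 bp upstream of the TSS and reached into the window, and peaks of ranks 542 and 2948 lay downstream. Which gene the distal peak acts on was not tested.

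LPCAT3 loads polyunsaturated fatty acids onto phospholipids. Its NR1H2 peak of rank 16 (signal 175) had its summit 420 bp upstream of the canonical TSS, with NCOA2 and 24 further lists. The other NR1H2 peak of the locus, of rank 1229, lay downstream at the TSSs of EMG1 and PHB2.

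The shared letters were read off the strongest of the 29 peaks, so a split of these peaks by the letters follows their signal by choice and is given as a description. The 10 with the letters had ranks of 142 or better and signals of 71.3 or more. The 19 without them had ranks of 472 or worse, and signals between 12.0 and 50.9. Outside the 10 loci the letters were rare, in 10 of 5482 NR1H2 peaks (0.182%, 95% Wilson interval 0.0991 to 0.335). They occurred in 1 of 91 such peaks of ranks 1 to 100 (1.10%, 0.194 to 5.96), in 3 of 398 of ranks 101 to 500 (0.754%, 0.257 to 2.19), in 1 of 496 of ranks 501 to 1000 (0.202%, 0.0356 to 1.13) and in 5 of 4497 of ranks 1001 to 5511 (0.111%, 0.0475 to 0.260). Over the preferred lists the NR1H2 list had the highest share of peaks with the letters (0.363%, 20 of 5511 windows), and 10 of those 20 windows are the sites printed above. Of 20046 windows of the same length at canonical TSSs of protein-coding genes, 8 held them (0.0399%, 0.0202 to 0.0787). Intervals cover counting error only.

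A DR4 with at most 2 mismatches was present at 3 of the 29 peaks (10.3%, 3.58 to 26.4) and at 192 of all 5511 NR1H2 peaks (3.48%, 3.03 to 4), and these intervals overlap. The 29 are part of the 5511. It was found at 17 of the 100 strongest NR1H2 peaks (17%, 10.9 to 25.5), at 175 of the 5411 below them (3.23%, 2.79 to 3.74) and in 1.10% of the windows at canonical TSSs. NR1H2 was not the list with most such windows, since 13 preferred lists had a higher share, with ZMYM2 the highest at 7.51% and NCOA2 at 3.95%. The hexamer AGGTCA, which is part of the DR4, was in 6 of the 29 windows (20.7%, 9.85 to 38.4) and in 13.4% of all NR1H2 windows. The sterol response element TCACNCCAC, the site of the SREBP proteins, was in none of the 29 windows (interval 0 to 11.7) and in 0.944% of all NR1H2 windows. The E-box CACGTG was in 2 of the 29 (6.90%, 1.91 to 22) and in 9.96% of all. All motifs were searched on both strands, and a match is a description of the letters only.

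The number of other DAPs at the strongest NR1H2 peaks of these genes varied. The 9 peaks among the top 100 had 2 to 37 other lists within 100 bp, with a median of 17, whereas the median over all top 100 peaks was 90. The median over all 5511 NR1H2 peaks was 20 and that over all 29 peaks of the genes was 22. Of the 91 other peaks of the top 100, 17 had fewer than 38 other lists, a limit set from the genes' own peaks, and the strongest peak of the whole list, 1202 bp from a TSS of INSM2, had 118. An NCOA2 summit lay within 100 bp of 7 of the 9 peaks, against 86 of all top 100 (86.0%, 77.9 to 91.5). The NCOA2 peaks with these summits ranked between 2928 (at SCD) and 31260 (at ABCA1) in their own list, and that at LPCAT3 ranked 28684. An NCOA1 summit lay near none of the 9, against 71 of the top 100 (71.0%, 61.5 to 79.0). Over all 29 peaks, NCOA2 was shared at 16 (55.2%, 37.5 to 71.6), against 33.5% of all NR1H2 peaks (32.3 to 34.8), and NCOA1 at 5 (17.2%, 7.60 to 34.5), against 23.1% (22 to 24.2). NR1H2 uses an input library that no other list uses, NCOA1 shares its input with 5 other lists and NCOA2 with 15, and the part of the input or of list length (5511, 11103 and 31878 lines) in these shares was not tested.

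At the single strongest peak of each locus, 9 distinct places in all, MED12 (a subunit of the Mediator kinase module), NCOA2 and POU2F1 were each present at 6. The share of all NR1H2 peaks with these lists within 100 bp was 38.2% for MED12, 33.5% for NCOA2 and 46.7% for POU2F1. Most of the 9 places are among the top 100 NR1H2 peaks, of which 86.0% had an NCOA2 summit within 100 bp. The share of NCOA2 at the 9 places was thus not above that of strong NR1H2 peaks. Shares over the top 100 were not computed for the other lists named here. AFF1, of the elongation machinery, MGA, an E-box protein, and SALL1, ZBTB12, ZFP91 and ZNF430 were each at 5. Their shares of all NR1H2 peaks lay between 34.1% (AFF1) and 53.3% (SALL1). MED12 and POU2F1 were at the same 6 places: SREBF1, ABCA1, NR1H3, FASN, SCD and LPCAT3.

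**Figure D2:**
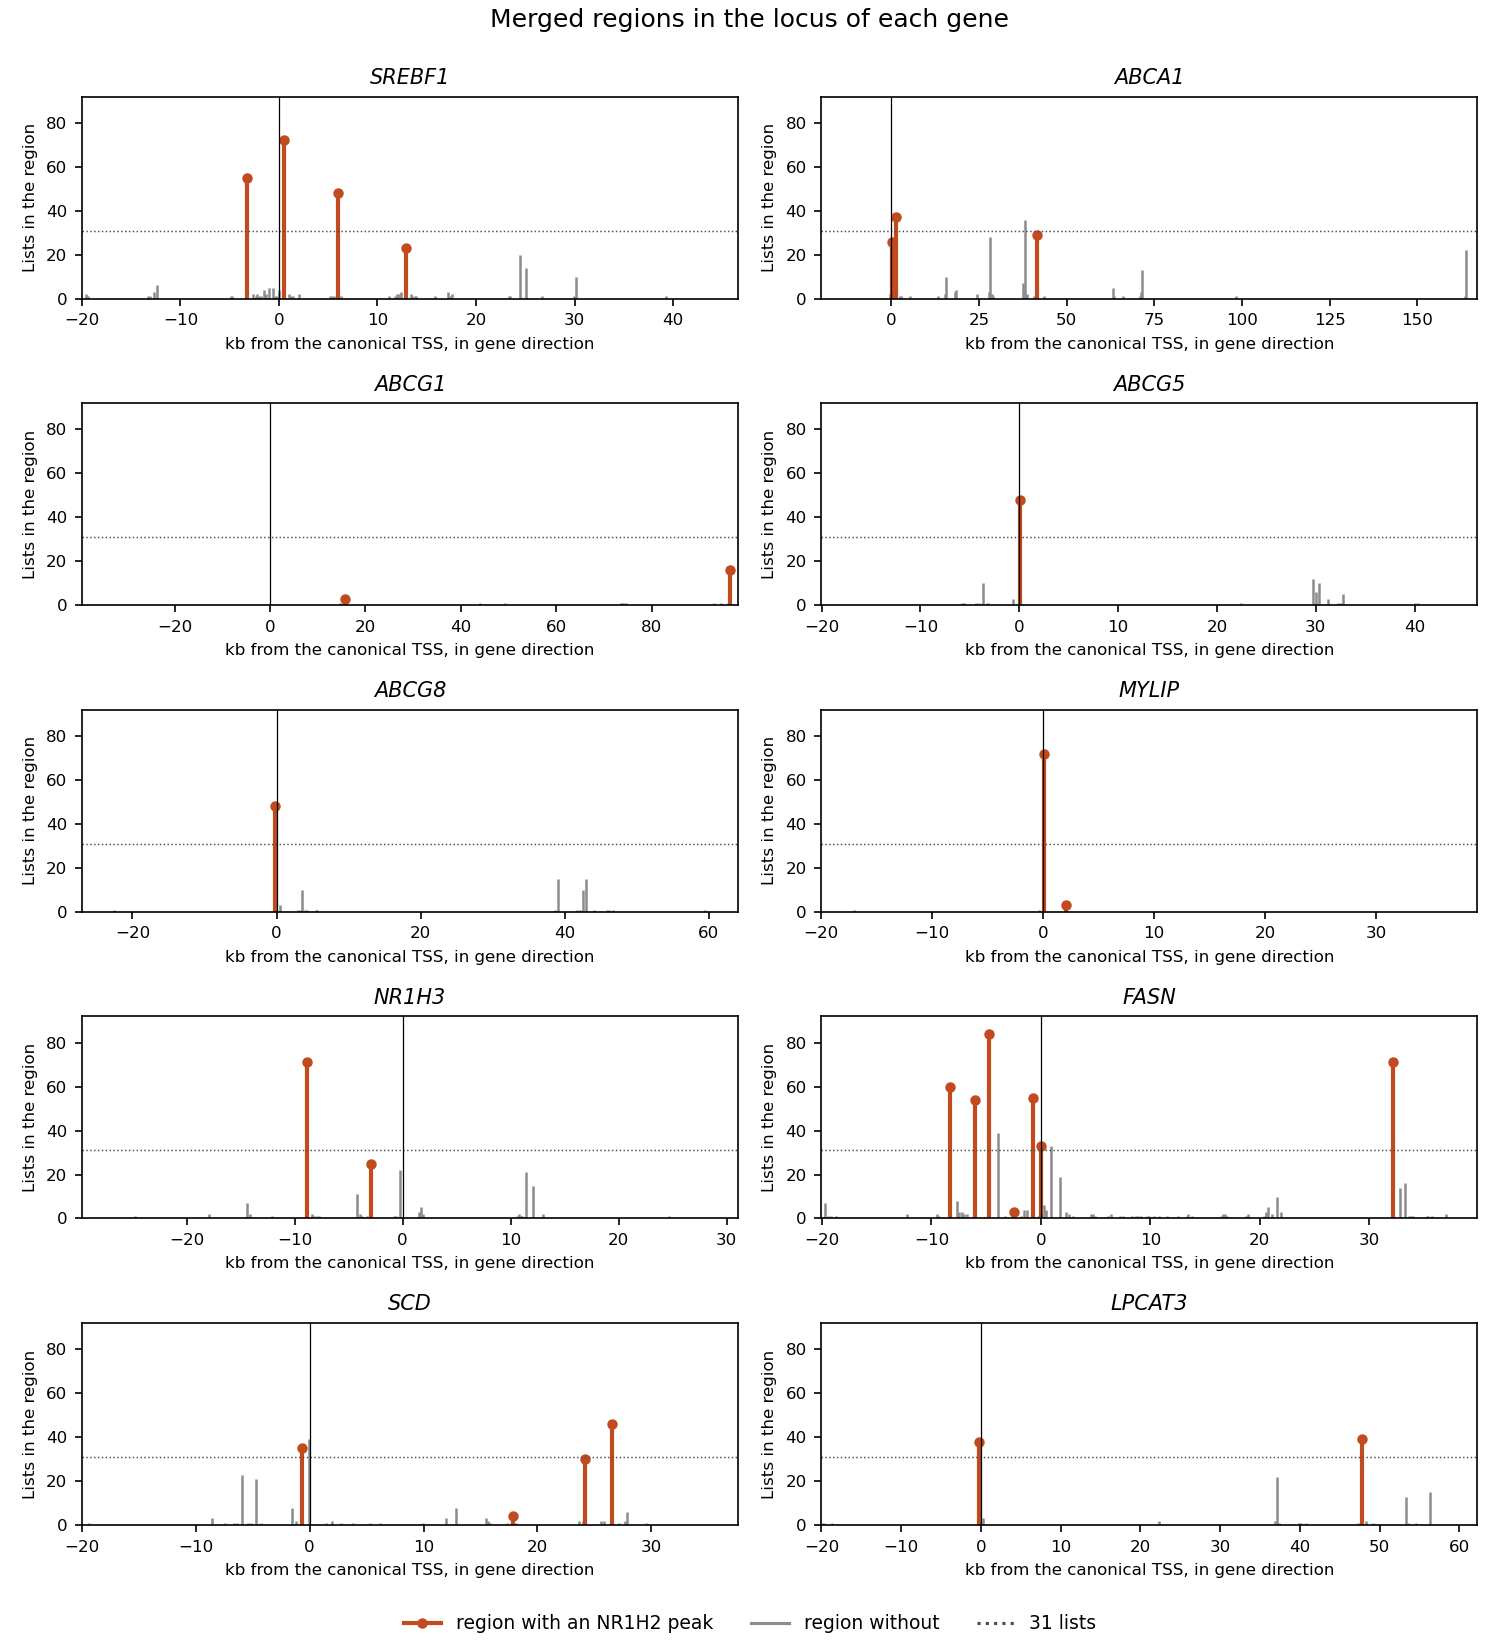
Number of lists in each merged region (vertical axes) by its distance from the canonical TSS in the direction of the gene (horizontal axes, kb), 1 panel per gene. Red lines with points are regions that include an NR1H2 peak, grey lines are the others, and the dotted line marks 31 lists; in ABCG1 no region reaches it and in FASN 8 do.

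Counting all preferred lists, the promoters of these genes lay between percentile 13.6 of all protein-coding genes (ABCG1) and percentile 95.5 (FASN). A region or gene is called highly bound here where at least 25% of the lists (31) have a peak. At their TSSs, 8 of the 10 genes were highly bound, against 42.1% of all protein-coding genes. In their loci 9 were, against 64.1%. The median was 53.5 lists per gene at a TSS, against 22 over all genes, and 72.5 lists in the locus, against 49. FASN had 81 lists at a TSS, SREBF1 75, MYLIP and NR1H3 72 each, SCD 56, LPCAT3 51, ABCG5 and ABCG8 49 each, ABCA1 28 and ABCG1 0. Genes differ in how many TSS positions are annotated, with 27 for NR1H3, 24 for SREBF1 and 1 for SCD, and more positions give more windows. At the canonical TSS alone the counts were 67 for FASN and SREBF1, 39 for LPCAT3 and 22 for NR1H3, while those of ABCA1, ABCG1, ABCG5, ABCG8, MYLIP and SCD stayed as they were.

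**Figure D3:**
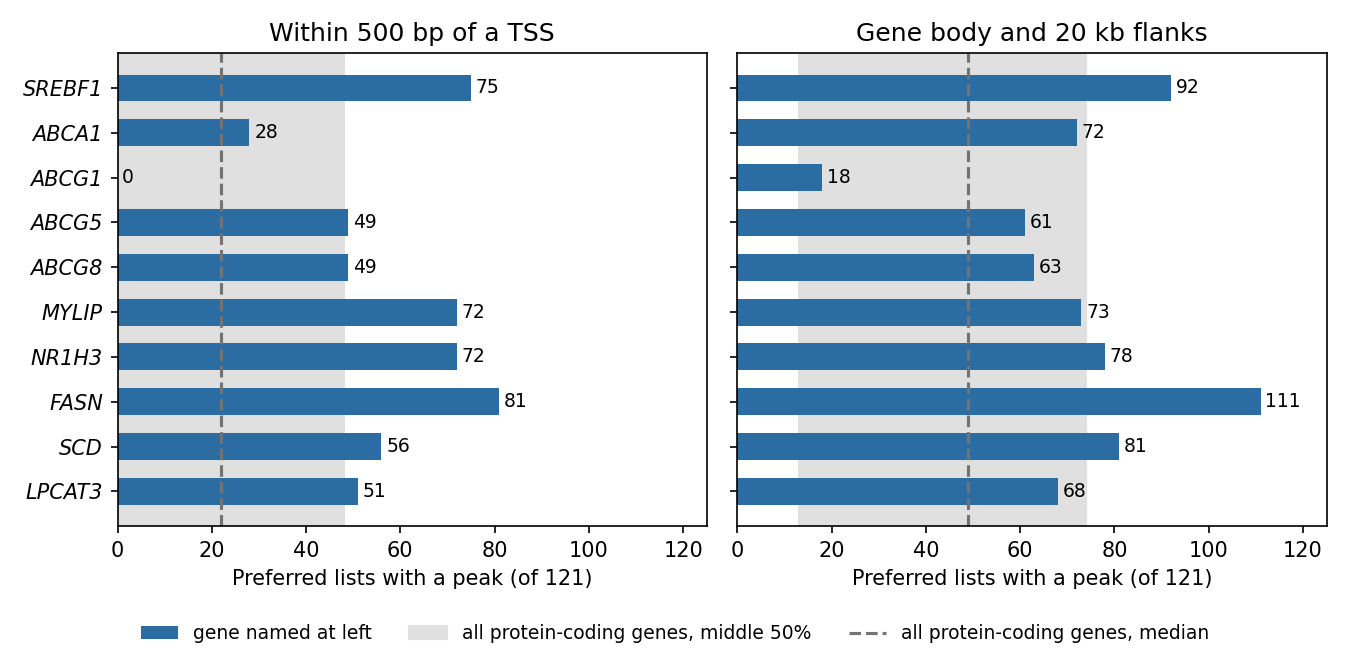
Number of preferred lists with a peak (horizontal axes) within 500 bp of a TSS (left) and in the gene body or 20 kb flanks (right) for each of the 10 genes. Dashed lines mark the medians of all protein-coding genes, 22 and 49, and grey bands their middle 50%; ABCG1 is the only gene below both medians.

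The loci differed more in peaks than in lists. FASN held 695 peaks of all lists, or 116 per 10 kb, followed by SREBF1 with 397 (59.6 per 10 kb) and SCD with 319 (55.4 per 10 kb). ABCG1 held 34 (2.47 per 10 kb). Part of the peaks lie at TSSs of other genes: 61.8% of those in the locus of ABCG1, 59.1% for NR1H3, 38.4% for FASN, 2.52% for SREBF1 and none for MYLIP. The most bound merged region was not always at the promoter. In FASN it had 84 lists and lay 4733 bp upstream of the canonical TSS at chr17:82102787-82103150. In SREBF1 it had 72 lists, 536 bp past the canonical TSS, and in MYLIP 72 lists at the TSS. In LPCAT3 the region bound by most lists, 39, lay at the TSSs of EMG1 and PHB2 and its own promoter had 38. In SCD the region at OLMALINC had 46 lists and the one at the SCD TSS 39.

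Among the preferred lists, 14 had a peak at a TSS of 9 of the 10 genes, the most of any. NR1H2 was the one of these that bound the fewest genes, at 16.2% of protein-coding genes, while the other 13 bound between 30.9% (ZNF816) and 60.9% (SALL1). After NR1H2 and ZNF816, the lists with fewest peaks among the 14 were SRY, RCOR3 and AFF1. In the loci, 10 lists reached all 10 genes. NR1H2 again had the lowest share of all genes, 30.8%, and the other 9 reached between 54.0% (ZNF544) and 82.7% (SALL1). ZNF865, E2F8 and ZFP91 were also among those 10. Most lists reached some of the genes: 114 lists had a peak at a TSS of at least 1 of them and 116 in at least 1 locus, and the 5 with none (CENPX, LHX6, SCMH1, ZBTB22 and ZNF334) hold 195 to 1131 peaks.

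**Figure D4:**
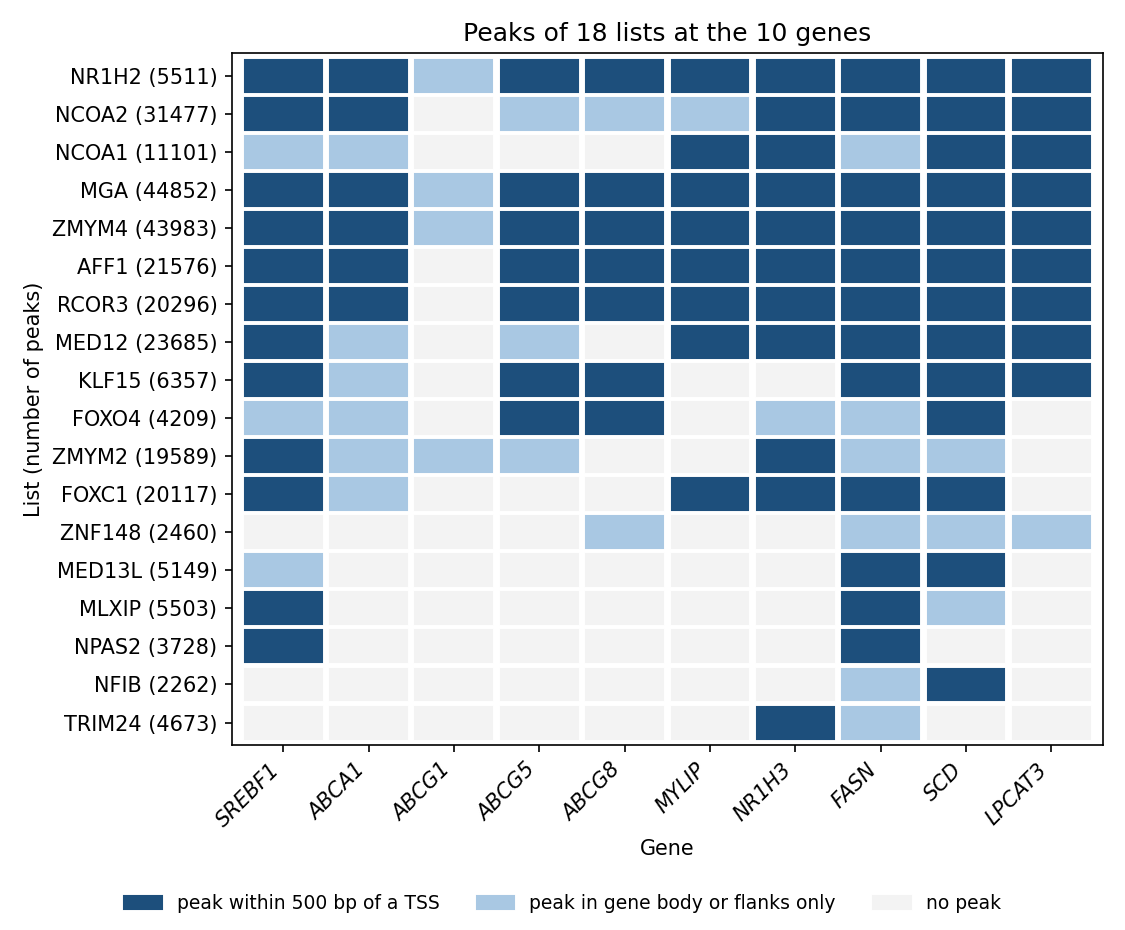
Presence of 18 lists (rows, with their number of peaks) at the 10 genes (columns). Dark squares are peaks within 500 bp of a TSS, light squares are peaks in the gene body or flanks only and pale grey squares are no peak; the row of NR1H2, with 5511 peaks, has a coloured square at every gene, and that of TRIM24 at NR1H3 and FASN.

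Cofactor lists differed in which of the genes they reached. AFF1 and RCOR3, a CoREST corepressor subunit, were among the 14 lists at a TSS of 9 genes, against 35.8% and 39.3% of all genes. MED12 was at a TSS of 6 genes, against 37.6% of all genes, and in the loci of 8, against 59.1%. MED13L, of the same Mediator module, was at a TSS of 2 (FASN and SCD), near its 17.7% of all genes. TRIM24, a cofactor of nuclear receptors, had 4673 peaks and was at a TSS of NR1H3, against 3.51% of all genes, and in the loci of NR1H3 and FASN, near its 18.4% of all genes. ZMYM2 and ZMYM4, which are zinc finger proteins, were at a TSS of 2 and 9 genes, with 23.4% and 54.2% of all genes bound there. Among TFs that bind E-boxes, MGA was at a TSS of 9 genes, against 55.4% of all genes. MLXIP (MondoA, a glucose-responsive TF) and NPAS2 (a circadian TF) were each at a TSS of SREBF1 and FASN only, against 14.4% and 10.8% of all genes. KLF15, which binds GC-rich boxes, was at 6 genes (SREBF1, ABCG5, ABCG8, FASN, SCD and LPCAT3), against 20.5% of all genes, and ZNF148, of like binding, at none, against 7.59%. Of the forkhead TFs, FOXC1 was at 5 genes, against 41.2%, and FOXO4 at ABCG5, ABCG8 and SCD, against 11.5%. NFIB was at SCD, against 4.83%.

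The 10 promoters shared part of their lists with each other. Excluding the pair of ABCG5 and ABCG8, whose lists were the same 49, the closest were SREBF1 and FASN, with 63 lists in common of 93 in either (Jaccard index 0.677). ABCA1 had the lowest indices among the bound promoters, with 24 lists in common with SREBF1 (0.304) and 22 with FASN (0.253). It had only 28 lists at a TSS, which by itself keeps its index low with genes of many lists. Most of its lists were also at these genes, and 26 were at NR1H3. The protein-coding genes whose list sets were most like those of a given gene were RPS3A for SREBF1 (0.767, 66 shared lists), THNSL1 for FASN (0.774, 72), WWOX for MYLIP (0.730, 65), ASB1 for NR1H3 (0.733, 66), SDC4 for LPCAT3 (0.671, 49), NUP54 for SCD (0.633, 50), CD2AP for ABCG5 (0.588, 40) and LRIG1 for ABCA1 (0.545, 18). The gene with the second highest index for ABCG5 and ABCG8 was SREBF2 (0.582, 39 shared lists), which encodes the main TF of cholesterol synthesis. The other genes next in likeness were FAM120B, CCDC92B, ARHGEF16, SH3YL1, CFAP20, RBM15 and CYGB. These indices are descriptions over the preferred lists, and a list of many peaks adds to most of them.

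Of 24 further genes of the pathway, 14 had an NR1H2 peak in the locus and 9 at a TSS, against 30.8% and 16.2% of all protein-coding genes, and their difference from the 10 was not tested. NCOA2 was in 22 of the 24 loci, against 64.8% of all genes, and NCOA1 in 19, against 42.6%. Of the 15 genes of fatty acid and lipid synthesis, 10 had an NR1H2 peak in the locus. At a TSS 12 of the 15 were highly bound, against 42.1% of all genes. FADS1 and FADS2 are in both counts, and as these genes overlap they are not independent. ACSS2 (89 lists) and ACLY (86 lists), which supply acetyl-CoA, were the most bound. ME1 and THRSP had no list at a TSS, although 51 and 87 lists were in their loci. Of the 9 genes of LXR, its partners and other targets, 4 had an NR1H2 peak in the locus and 2 at a TSS, against 30.8% and 16.2% of all genes. The 4 include the RXR genes, which are partners of LXR. SMPDL3A (81 lists at a TSS) and RXRB (80) were the most bound, while CETP had 1 and LPL none.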

How the data were processed

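Peak lists of FLAG-tagged DAPs in HepG2 were used, and 24 further samples are input libraries that served only as labels of shared controls. The authors ran ENCODE's pipeline for ChIP-seq on hg38. Aligner and peak caller: not given in the sources used here. The deposited score is a whole number of 540 to 1000 set by the pipeline, and the deposited signal is a peak's own value, not scaled between lists. The q column, negative in 43 lists, was not used. The lists hold 1471857 lines and 1466524 distinct peaks, and read depth is unknown.

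All peaks lie within hg38 chromosome lengths. TSSs and genes came from GENCODE 44. Peaks were counted by overlap with TSS windows (500 bp) and loci (20 kb flanks), summits were called shared within 100 bp, and motifs were searched within 100 bp of summits. Merged regions join preferred peaks cut to their central 100 bp. With 1 list per DAP no test was made, and intervals are 95% Wilson intervals. Likeness was the Jaccard index of lists at TSSs, for genes with at least 10 lists, leaving out genes with a TSS within 5 kb.

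The genes, gene lists and DAPs were chosen with earlier results of these data known. The rule names the 10 genes, the 2 most and 2 least bound genes of each pathway list, 18 DAPs with the 5 lists at most TSSs and the 5 in most loci, for each gene the region bound by most lists, up to 6 NR1H2 peaks and the 2 genes most like it. INSM2, ACSL3, APOC1, FADS1, FADS2 and the lists POU2F1, MEIS2, SIX5, E4F1, SALL1, ZBTB12 and ZNF430 were named after values were seen. So were the letters shared by the strongest sites. Counting and motif search were tested on simulated data. Alternatives changed the score, the part of a peak that counts, windows, TSSs, lists, sharing rule and mismatches. Scripts used pandas 2.3.3, numpy 2.4.6 and scipy 1.17.1 under Python 3.11.15, and matplotlib 3.10.9 for plots.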

Additional observations from a re-analysis of the deposited data

Results flagged for a closer look

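The 6 lists of data sets that are not preferred were left out of the counts above. Each of the 6 has a peak in the loci of at least 2 of the 10 genes, and none reaches all 10. EP300, a histone acetyltransferase and coactivator, had a peak in the loci of 8 genes (all but ABCG1 and MYLIP), against 49.0% of all protein-coding genes. TSC22D2 was in 9 loci, against 48.3%, TUT4 in 6, against 35.0%, ZNF431 in 8, against 53.3%, and ZZZ3 in 7, against 46.3%. GPBP1L1, with 73 peaks in all, was in 2 loci, those of ABCG5 and ABCG8, against 0.404%, whose loci overlap. None of the 6 lists had a peak in the locus of ABCG1.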

How the results depend on the processing

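Keeping only peaks with a deposited score of 830 or more moved most: the median was 30 lists per gene at a TSS, against 8.5 over all genes, and 43.5 in the locus, against 25. With that score 4 genes were highly bound at a TSS, against 20.1% of all genes. NCOA1 was at a TSS of 1 gene, against 10.4%, so its count there was no higher than the background, and in the loci of 4, against 22.5%. NCOA2 was at a TSS of 3, against 21.2%. NR1H2 stayed in all 10 loci, against 15.5% of all genes, and at a TSS of 7, against 7.42%. At canonical TSSs only, NCOA1 was at 2 genes, near its 19.3% of all genes, and NR1H2 at 7, against 14%. With no flank NR1H2 was in 8 loci, against 17.9% of all genes. Without peaks at TSSs of other genes it was also in 8, against 15.6%. A DR4 was found at 0 of the 29 NR1H2 peaks with at most 1 mismatch, at 12 with at most 3 (15.7% of all NR1H2 peaks) and at 5 over the whole peak (5.70%), and the shared letters, added after the sites were seen, were at 10. Of the alternatives of the main results, 11 moved by more than 1.5 times or to 0. The other 88, among them all the counts above of genes with an NR1H2 peak, stayed within 1.5 times. So did 154 counts for single genes, and the 26 single-gene counts that moved were all lower. The 88 include counts of genes with an NR1H2, NCOA1 or NCOA2 peak under other choices of lists. Such a choice cannot change a count that rests on 1 list, so these repeats say nothing about stability. NR1H2 peaks shared with a coactivator were 17 of 29, against 43.5% of all NR1H2 peaks, and 12 to 22 under the other rules for sharing. With summits within 50 bp they were 12, against 29.9%, and within 250 bp 21, against 60.4%. With peaks overlapping by 1 bp or more they were 22, near the 69.4% of all NR1H2 peaks. No paired analysis was possible because each DAP has 1 list. A peak that is missing from a list may be absent or below the depth of that list, which is unknown, and the cause of these changes was not tested.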

Other observations

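The letters GTTACTNNNGGTC were read off the strongest sites of the 10 genes, so their presence there follows from that choice. Of the 100 NR1H2 peaks of highest signal, 10 held them, and 9 of these lie in the loci of the 10 genes. The remaining 1, of rank 11, had its summit 12 bp from a TSS of ACSL3, a long-chain acyl-CoA synthetase, with 27 other lists and both NCOA1 and NCOA2 within 100 bp. ELOVL5, a fatty acid elongase, was the nearest gene to the peak of rank 10 (signal 234, 10435 bp from a TSS), which had 37 other lists and a best DR4 match with 4 mismatches. The peak of rank 5, 10771 bp from a TSS of APOC1, an apolipoprotein gene, had 55 other lists and a DR4 with 2 mismatches. These 3 peaks were picked after their values were seen.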
